A study of Homo sapiens with 4 samples.

Results

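Heme synthesis and iron handling were examined through 39 genes chosen by symbol from the 35606 genes of a count table of K562 cells. K562 is a human chronic myelogenous leukaemia cell line that makes embryonic and fetal globins and therefore runs the heme pathway. The series compared K562 cells expressing JAZF1-SUZ12 with mock K562 cells, 2 libraries in each group, to ask how the transcriptome differs when the fusion is present. JAZF1-SUZ12 is the fusion protein of endometrial stromal sarcoma and carries most of the Polycomb subunit SUZ12. The labels state neither how the fusion was delivered, nor what the mock cells received, nor whether a group is 1 clone or a pool. They also do not say that the libraries of a group came from separate cultures, so p-values measure only the spread between these libraries.

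The libraries held between 17260936 and 24423028 estimated counts. Counts of JAZF1 were 12 and 27 in mock and 574 and 731 with JAZF1-SUZ12, which matches the labels. The source label gives uterus, yet the defining markers were those of erythroid K562 cells: the 12 erythroid markers summed to 10154 and 10379 counts per 1e+06 counts (CPM) in mock, whereas the 10 endometrial stroma markers summed to 16.2 and 17.3 CPM. With JAZF1-SUZ12 the stromal sum was 33.8 and 36.0 CPM, and COL1A1 was the stromal marker called higher. LUM was at 0 in every library and COL3A1 had at most 3 counts. Markers of recycling macrophages summed to at most 0.811 CPM, with VCAM1 and SPIC at 0. Mitochondrially encoded transcripts took between 4.83% and 5.39% of counts, and the ranges of the groups overlapped.

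Heme is built in a relay between mitochondrion and cytosol. ALAS makes the first precursor inside the mitochondrion, ALAD, UROS and UROD are among the enzymes that assemble the ring in the cytosol, and CPOX, PPOX and FECH finish it in the mitochondrion, where FECH inserts the iron. Erythroid cells use the isoform ALAS2 and take in iron bound to transferrin through TFRC, and the carrier SLC25A37 moves that iron into mitochondria. Iron that is not used is stored in ferritin, a shell of FTH1 and FTL chains, or exported by SLC40A1. The iron regulatory proteins ACO1 and IREB2 bind hairpins called iron-responsive elements, which block translation when they lie in a 5′ UTR and stabilise the message when they lie in a 3′ UTR.

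Of the 39 genes, 37 had enough counts to be tested. HMOX1 and FLVCR2 did not, with at most 3 counts in any library. In the edgeR quasi-likelihood test, 13 of 37 (35.1%) passed an adjusted p of 0.05, against 24.7% of all 14750 genes tested. Of these 13, 9 were higher and 4 lower in JAZF1-SUZ12 libraries, where the shares over all genes were 13.3% and 11.4%. Heme and iron genes are abundant, and abundant genes were called more often: among those averaging 500 counts or more, 30.3% were called, and so were 13 of the 36 members at that level. The share of calls over the whole set was thus near its background, and the median log2 fold change was 0.0054, against 0.0032 for all genes tested and -0.060 for those averaging 500 counts or more. The calls were spread unevenly over the steps. They numbered 5 of 8 among heme enzymes, 1 of 7 in mitochondrial transport, 2 of 4 in iron uptake, 2 of 5 in storage and chaperones, 1 of 2 in iron export and 2 of 3 in heme degradation. None of the 2 tested heme transporters, the 2 iron sensors and the 4 iron-sulfur cluster genes was called.

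**Figure D1:**
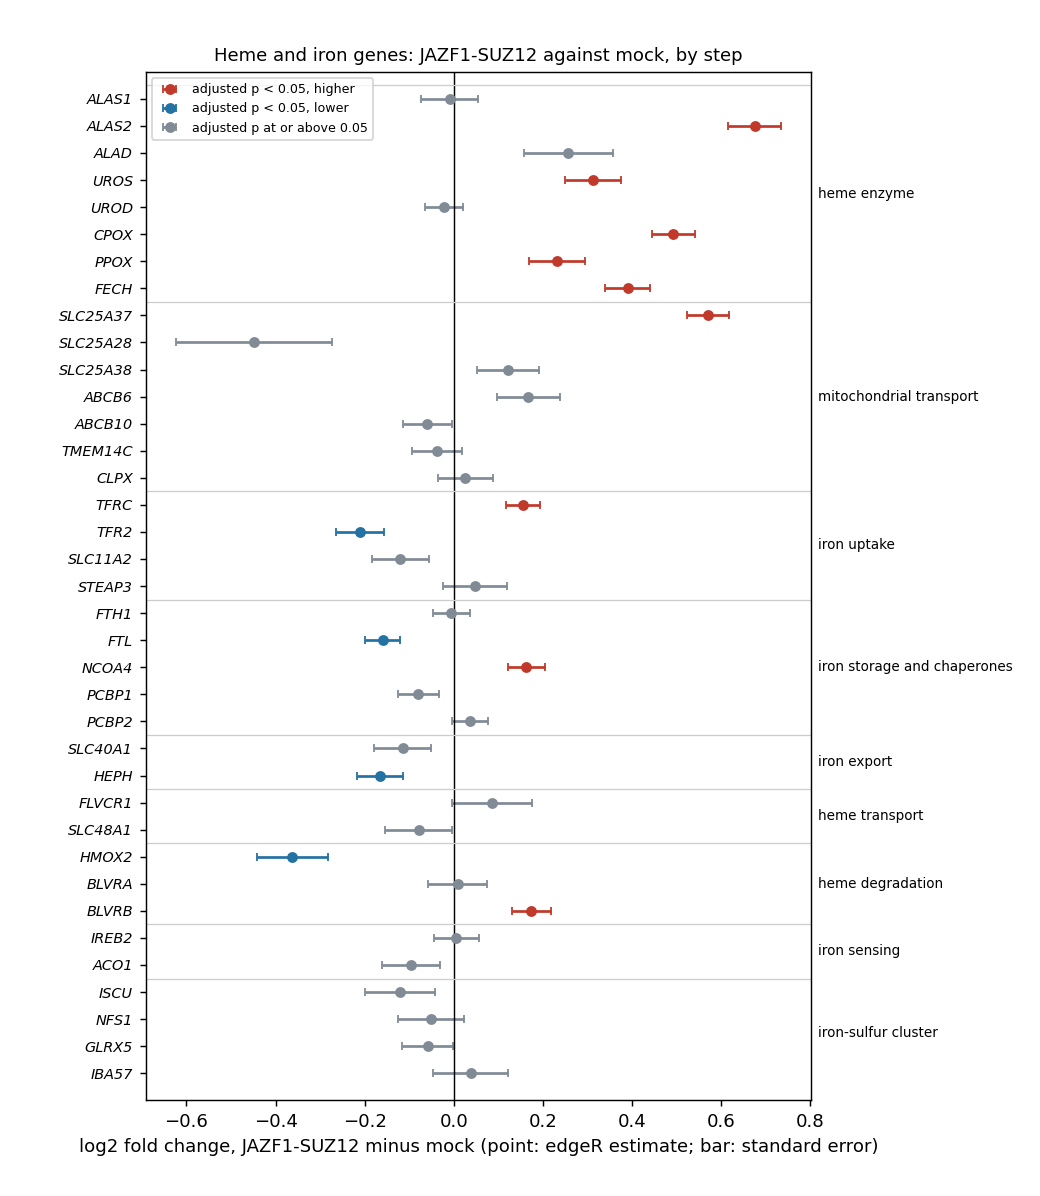
Difference between JAZF1-SUZ12 and mock libraries in the 37 tested heme and iron genes, ordered by step (horizontal axis: log2 fold change; points: edgeR estimates; bars: standard errors, 2 libraries per group). The heme enzymes called higher and SLC25A37 lie between 0.23 and 0.68, HMOX2 is the lowest called gene at -0.36, and the iron-sulfur cluster genes lie between -0.12 and 0.04.

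Among the heme enzymes, ALAS2, CPOX, FECH, UROS and PPOX rose and none fell. They include the erythroid entry enzyme and all 3 of the enzymes that finish the ring in the mitochondrion. ALAS2 (ENSG00000158578; chrX:55009055-55031064, minus strand), which commits glycine and succinyl-CoA to heme in erythroid cells, was at 56.0 and 57.7 CPM in mock libraries 1 and 2. It was at 89.2 and 94.8 CPM in JAZF1-SUZ12 libraries 1 and 2. Both JAZF1-SUZ12 libraries lay above both mock libraries by far more than the replicates differed. In edgeR the log2 fold change was 0.68 (standard error 0.06, adjusted p = 5.74e-07), the largest change among the 37 genes. ALAS1, the housekeeping isoform of the same enzyme, was at 63.8 and 60.4 CPM in mock and at 59.7 and 65.3 CPM in JAZF1-SUZ12 libraries, and the groups overlapped. In edgeR the log2 fold change was -0.01 (standard error 0.06, adjusted p = 0.936). Within a library, the ratio of ALAS2 to ALAS1 CPM was 0.877 and 0.955 in mock and 1.495 and 1.45 in JAZF1-SUZ12 libraries. Per kilobase of the longest coding transcript, the mean mock levels of the isoforms were close, at 28.0 CPM for ALAS2 and 25.6 CPM for ALAS1.

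CPOX (ENSG00000080819; chr3:98579446-98593723, minus strand), which oxidises coproporphyrinogen, was at 147 and 151 CPM in mock and at 208 and 217 CPM in JAZF1-SUZ12 libraries. In edgeR the log2 fold change was 0.49 (standard error 0.05, adjusted p = 1.86e-06). FECH (ENSG00000066926; chr18:57548283-57586772, minus strand), which inserts iron into the ring, was at 112 and 109.7 CPM in mock and at 146 and 149 CPM in JAZF1-SUZ12 libraries. In neither gene did the groups overlap, and the libraries of a group lay within a few percent of each other. In edgeR the FECH log2 fold change was 0.39 (standard error 0.05, adjusted p = 3.95e-05). UROS (ENSG00000188690; chr10:125784980-125823285, minus strand), which closes the tetrapyrrole ring, was at 51.4 and 48.8 CPM in mock and at 63.5 and 62.9 CPM in JAZF1-SUZ12 libraries, which in edgeR is a log2 difference of 0.31 (standard error 0.06, adjusted p = 0.0018). PPOX (ENSG00000143224; chr1:161166410-161178013, plus strand), which makes protoporphyrin, was at 48.7 and 47.7 CPM in mock and at 56.6 and 58.3 CPM in JAZF1-SUZ12 libraries. Its log2 fold change was 0.23 (edgeR, adjusted p = 0.0128), the smallest of the 5, and its call was lost with DESeq2 (adjusted p = 0.0755), without JAZF1-SUZ12 replicate 2 (edgeR, adjusted p = 0.0606) and without mock replicate 2 (edgeR, adjusted p = 0.0778).

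The cytosolic enzymes ALAD and UROD did not pass the test. ALAD, which joins the first precursors into a pyrrole, was at 22.4 and 25.4 CPM in mock and at 26.1 and 31.7 CPM in JAZF1-SUZ12 libraries. The groups did not overlap, but the libraries of each differed widely, and the adjusted p was 0.0691 (edgeR; log2 fold change 0.26). With all libraries, ALAD passed unfiltered and with a mean of at least 50 counts required (edgeR, adjusted p = 0.0463 and 0.0459). It also passed with the replicate number as a block (edgeR, adjusted p = 0.0315). Its log2 fold change ranged from 0.12 to 0.36 when 1 library was left out. Its side of the threshold thus depended on the filter and the model, and its size on single libraries. UROD, which decarboxylates the ring and was the most abundant heme enzyme per kilobase in mock (303 CPM), had the log2 fold change -0.02 (edgeR, adjusted p = 0.749). In the authors' deposited table, ALAS2, CPOX, FECH and UROS were also called, with log2 fold changes of 0.57, 0.53, 0.38 and 0.35, and PPOX was not (adjusted p = 0.277). That table called 8.50% of the genes that had an adjusted p, and 8 of the 39 genes here.

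**Figure D2:**
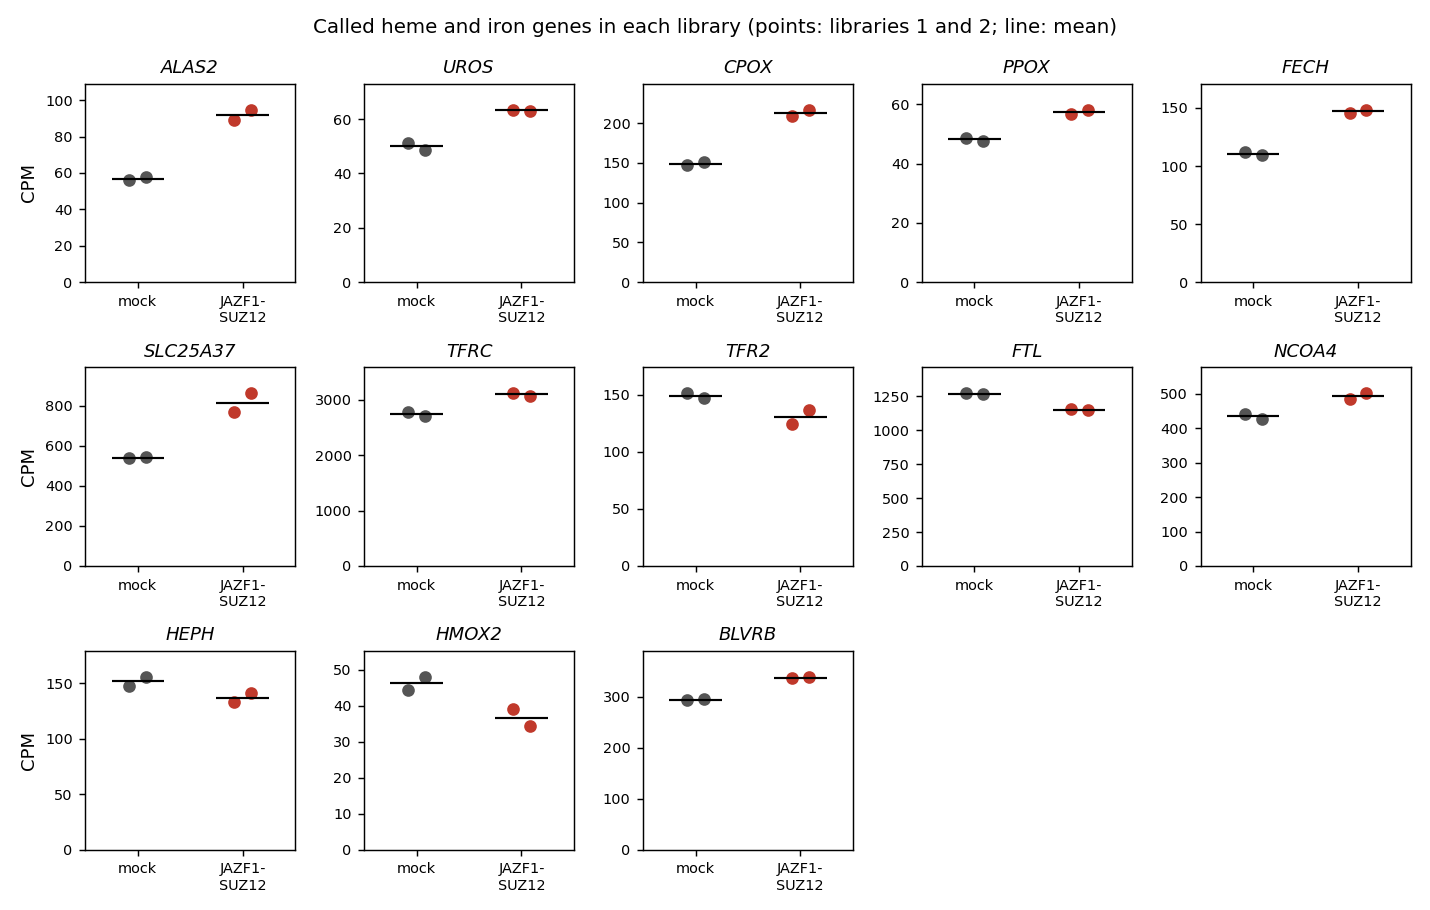
CPM of the 13 heme and iron genes called in the comparison, in each library (points: libraries 1 and 2 of a group; lines: group means; vertical axes start at 0). The genes were picked by this same comparison, so groups that do not overlap add no support to the calls. The groups do not overlap in any of the 13 genes, nor in 61.0% of all genes tested. The gap is widest, relative to the level, for ALAS2, SLC25A37 and CPOX.

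The erythroid markers that stand beside this result also moved. HBZ, HBE1, HBG1 and ALAS2 itself were called higher and none of the 12 markers was called lower, and the sum of the 12 was 11939 and 11793 CPM in JAZF1-SUZ12 libraries, above both mock libraries. GATA1, KLF1 and TAL1 were not called, with log2 fold changes of 0.04, 0.02 and -0.03 (edgeR). Of the 6 myeloid markers only LYZ was called, and it fell (edgeR, log2 fold change -0.51, adjusted p = 0.00069). The myeloid sum was 36.7 and 32.2 CPM in mock and 24.7 and 24.0 CPM with JAZF1-SUZ12. Most of that sum was LYZ itself, at 34.4 and 29.9 CPM in mock and 23.5 and 22.6 CPM with JAZF1-SUZ12. The part of these markers in the rise of heme enzymes was not tested, and in bulk RNA more cells of an erythroid kind cannot be told apart from more RNA per cell.

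Start regions of ALAS2, CPOX and FECH, the heme enzymes with the smallest p-values, are shown because these members rose together. The 250 bases before the RefSeq start (GRCh38.p14) are given on the gene's strand, with matches to AGATAA, the core bound by GATA factors, and to TGAGTCA, the core bound by NF-E2 and AP-1, on either strand in capitals. The regions are chrX:55030978-55031227, chr3:98593612-98593861 and chr18:57586703-57586952, all on the minus strand.
ALAS2: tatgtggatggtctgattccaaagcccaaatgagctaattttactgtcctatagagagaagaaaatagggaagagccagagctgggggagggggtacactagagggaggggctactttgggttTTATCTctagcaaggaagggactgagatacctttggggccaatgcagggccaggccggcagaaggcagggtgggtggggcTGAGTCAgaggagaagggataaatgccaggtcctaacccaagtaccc
CPOX: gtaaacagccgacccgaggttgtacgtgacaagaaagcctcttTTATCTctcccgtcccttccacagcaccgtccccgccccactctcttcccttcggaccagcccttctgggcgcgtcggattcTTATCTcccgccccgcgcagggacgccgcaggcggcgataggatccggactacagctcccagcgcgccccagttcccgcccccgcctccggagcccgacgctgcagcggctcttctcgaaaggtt
FECH: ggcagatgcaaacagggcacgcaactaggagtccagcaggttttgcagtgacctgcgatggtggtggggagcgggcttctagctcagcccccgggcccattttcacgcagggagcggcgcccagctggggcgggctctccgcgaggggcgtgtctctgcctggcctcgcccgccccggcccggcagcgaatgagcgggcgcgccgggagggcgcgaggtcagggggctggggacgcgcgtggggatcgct

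The ALAS2 region held 1 GATA core, 127 to 122 bases before the start, and 1 NF-E2 core, 47 to 41 bases before it. CPOX held 2 GATA cores and FECH held no match to either motif in this window. The table listed 34 of the 39 genes, and FTH1, HMOX1, SLC25A37, TFR2 and UROS were not among them. These 34 genes have 46 start regions in the table. A GATA core lay in 5 of the 46, 1 each for ALAS2, CPOX, PPOX, HEPH and SLC11A2, and in 9.17% of all 35116 start regions, so the members' share was near that of all regions. The NF-E2 core lay in 2 of the 46, those of ALAS2 and FLVCR2, and in 4.20% of all. Of the 5 genes with a GATA core, 3 were called higher and HEPH was called lower, where 24.7% of all genes tested were called. So few genes cannot be set against that share, and a link between the core and the calls was not tested. ALAS2 differed from CPOX and FECH in base composition: its region held 1 CpG, those of CPOX and FECH held 27 and 26, and the median over all regions was 11.

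Mitochondrial transport changed through 1 carrier. SLC25A37 (mitoferrin 1; ENSG00000147454; chr8:23528805-23575463, plus strand), which brings iron into the mitochondria of erythroid cells, was at 539 and 544 CPM in mock and at 769 and 863 CPM in JAZF1-SUZ12 libraries. The JAZF1-SUZ12 libraries differed from each other more than the mock libraries did, and both lay above them. In edgeR the log2 fold change was 0.57 (standard error 0.05, adjusted p = 3.37e-07), the smallest p-value among the 39 genes. Its paralog SLC25A28 (mitoferrin 2), which serves other cells, was scarce, at 7.48 and 8.87 CPM in mock and at 6.49 and 5.73 CPM in JAZF1-SUZ12 libraries. It was not called (edgeR, log2 fold change -0.45, standard error 0.17, adjusted p = 0.0726), although it passed without JAZF1-SUZ12 replicate 1 (edgeR, adjusted p = 0.0496) and without mock replicate 1 (edgeR, adjusted p = 0.043). The ratio of SLC25A37 to SLC25A28 CPM within a library was 72.0 and 61.3 in mock and 118 and 151 in JAZF1-SUZ12 libraries.

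The partners of these carriers did not pass the test. ABCB10, which binds and stabilises mitoferrin 1, had the log2 fold change -0.06 (edgeR, adjusted p = 0.482). Reads of ABCB10 are less certain than others, because its 3 listed pseudogenes took between 29.1% and 35.2% of the sum of gene and pseudogenes, and the log2 fold change was 0.01 when they were added. SLC25A38, which brings glycine to ALAS, and ABCB6, a porphyrin transporter, had log2 fold changes of 0.12 and 0.17 (edgeR, adjusted p = 0.222 and 0.0946). ABCB6 passed without JAZF1-SUZ12 replicate 1 (edgeR, adjusted p = 0.0369), without mock replicate 2 (edgeR, adjusted p = 0.0421) and with the replicate number as a block (edgeR, adjusted p = 0.0451). TMEM14C, which moves protoporphyrinogen, and CLPX, the unfoldase that activates and turns over ALAS, had log2 fold changes of -0.04 and 0.03.

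**Figure D3:**
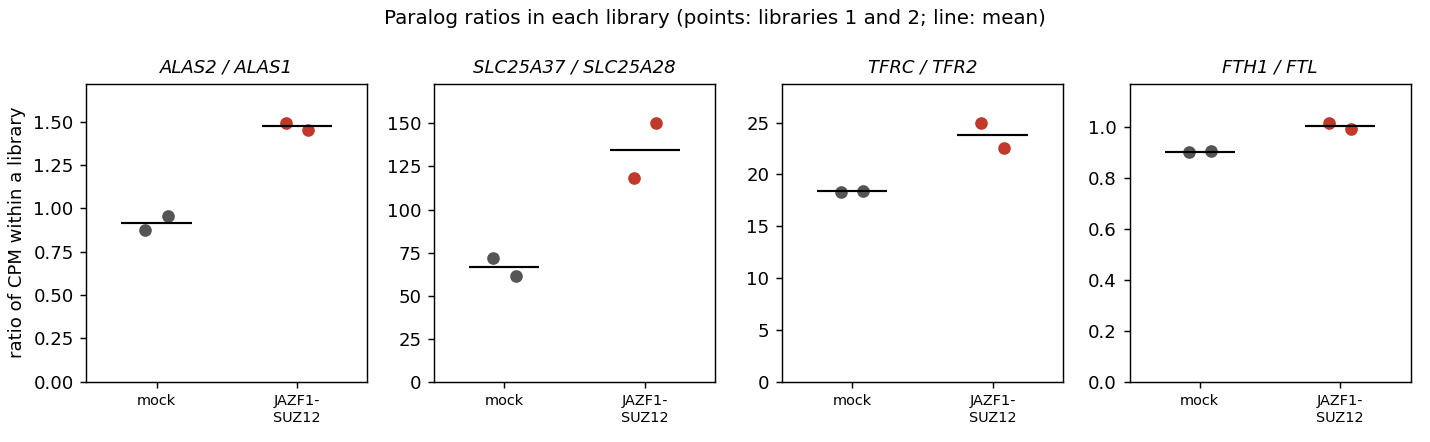
Ratio of CPM of 4 pairs of related members within each library (points: libraries 1 and 2 of a group; lines: group means; vertical axes start at 0; no test was made of the ratios). The ratio is higher in both JAZF1-SUZ12 libraries for every pair, from 0.877 and 0.955 to 1.495 and 1.45 for ALAS2 to ALAS1 and from 0.904 and 0.906 to 1.02 and 0.995 for FTH1 to FTL.

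Iron uptake changed in opposite directions at the transferrin receptors, and by little. TFRC (ENSG00000072274; chr3:196027183-196082189, minus strand), the receptor that carries most iron into erythroid cells, was at 2773 and 2702 CPM in mock and at 3115 and 3076 CPM in JAZF1-SUZ12 libraries. This made it the most abundant of the 39 genes by CPM, and the groups did not overlap. In edgeR the log2 fold change was 0.16 (standard error 0.04, adjusted p = 0.00718), a mean 13.1% higher, and its call was lost without mock replicate 2 (edgeR, adjusted p = 0.0625). TFR2 (ENSG00000106327; chr7:100620416-100642779, minus strand), which senses transferrin and associates with the erythropoietin receptor, was at 151 and 147 CPM in mock and at 125 and 137 CPM in JAZF1-SUZ12 libraries. It fell by 0.21 on the log2 scale (edgeR, standard error 0.05, adjusted p = 0.00866). SLC11A2, which moves iron out of the endosome, and STEAP3, the reductase that prepares it, were not called, with log2 fold changes of -0.12 and 0.05 (edgeR, adjusted p = 0.192 and 0.683). EPOR, the erythropoietin receptor, was not called either (edgeR, log2 fold change -0.13, adjusted p = 0.228).

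In storage, the light chain of ferritin fell and the heavy chain was not called. FTL (ENSG00000087086; chr19:48965301-48966878, plus strand) was at 1272 and 1266 CPM in mock and at 1157 and 1148 CPM in JAZF1-SUZ12 libraries, a mean 9.15% lower where replicates lay within 1% of each other. In edgeR the log2 fold change was -0.16 (standard error 0.04, adjusted p = 0.00706). FTH1, the chain that oxidises iron, was at 1150 and 1147 CPM in mock and at 1179 and 1143 CPM in JAZF1-SUZ12 libraries, so the groups overlapped. Its log2 fold change was -0.01 (edgeR, adjusted p = 0.945). Per kilobase of the longest coding transcript, FTL and FTH1 had the highest mean mock levels of the 39 genes, at 1445 and 934 CPM. Processed copies of both lie throughout the genome, but the listed FTH1 and FTL pseudogenes took at most 0.146% of the counts of gene and pseudogenes together. NCOA4, the receptor that sends ferritin to lysosomes (ENSG00000266412; chr10:46005088-46030714, minus strand), rose from 443 and 427 CPM to 486 and 502 CPM (edgeR, log2 fold change 0.16, adjusted p = 0.00974), and its call was lost without mock replicate 2 (edgeR, adjusted p = 0.114). PCBP1, a chaperone that hands iron to ferritin, was at 401 and 412 CPM in mock and at 399 and 382 CPM with JAZF1-SUZ12. PCBP2, a related chaperone, was at 609 and 606 CPM in mock and at 631 and 634 CPM with JAZF1-SUZ12. The groups did not overlap for either, but neither passed the test, with log2 fold changes of -0.08 and 0.04 (edgeR, adjusted p = 0.223 and 0.566).

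Iron-responsive elements were searched for in the members because TFRC, FTL and ALAS2 are the textbook carriers of this hairpin. The pattern was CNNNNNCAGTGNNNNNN, 17 bases with a base other than G as the last of the loop and all 5 pairs of the stem able to form, in the UTRs of GENCODE 29 coding transcripts (GRCh38). It matched 123 of 19652 coding genes (0.626%) and 5 of the 39 members. The elements are shown with 6 bases on each side and the loop in capitals. The core positions are chrX:55030947-55030963 in the 5′ UTR of ALAS2, chr11:61967580-61967596 in that of FTH1, chr19:48965341-48965357 in that of FTL and chr2:189580667-189580683 in that of SLC40A1, on the minus strand except for FTL. The 3′ UTR of TFRC held 4, the outermost at chr3:196050985-196051001 and chr3:196050469-196050485, and both of these are shown.
ALAS2: ttcgttcgtcctCAGTGCagggcaacagg
FTH1: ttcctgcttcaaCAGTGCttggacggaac
FTL: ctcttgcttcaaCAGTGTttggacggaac
SLC40A1: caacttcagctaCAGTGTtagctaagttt
TFRC, first: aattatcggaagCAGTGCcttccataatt
TFRC, last: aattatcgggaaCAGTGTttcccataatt

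The members that matched the pattern did not share a direction, and hairpins that depart from it were not searched for. Among the genes with a 5′ element, ALAS2 was higher and FTL lower, and FTH1 and SLC40A1 were not called. TFRC, with its elements in the 3′ UTR, was higher. The sensors that bind the element were not called: ACO1 was at 59.1 and 63.3 CPM in mock and at 55.8 and 60.4 CPM in JAZF1-SUZ12 libraries, and IREB2 was at 153 and 148 CPM in mock and at 155 and 152 CPM in JAZF1-SUZ12 libraries. Their log2 fold changes were -0.10 and 0.01 (edgeR, adjusted p = 0.316 and 0.953). IREB2 is the 1 member called in the authors' deposited table and not here: its log2 fold change was 0.31 in the authors' deposited table (adjusted p = 0.0139), whereas the deposited counts overlapped between groups.

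Of the iron export genes HEPH fell and SLC40A1 was not called. HEPH, the copper oxidase that works beside the exporter (ENSG00000089472; chrX:66162549-66268867, plus strand), was at 148 and 155 CPM in mock and at 133 and 141 CPM in JAZF1-SUZ12 libraries and fell by 0.17 on the log2 scale (edgeR, adjusted p = 0.0292). This was the least certain call: it was lost with DESeq2 (adjusted p = 0.0549), with total counts in place of TMM (edgeR, adjusted p = 0.0531), without JAZF1-SUZ12 replicate 1 (edgeR, adjusted p = 0.0806) and without mock replicate 2 (edgeR, adjusted p = 0.156). SLC40A1 (ferroportin), the exporter of cellular iron, was at 53.7 and 56.2 CPM in mock and at 49.997 and 52.9 CPM in JAZF1-SUZ12 libraries, not overlapping but not called (edgeR, log2 fold change -0.11, adjusted p = 0.217). Groups that do not overlap are common with 2 libraries each: 22 of the 37 tested members did not overlap, as did 61.0% of all genes tested. The heme exporter FLVCR1 and the lysosomal heme transporter SLC48A1 had log2 fold changes of 0.09 and -0.08 (edgeR, adjusted p = 0.537 and 0.496), and neither was called. FLVCR1 was at 23.7 and 24.5 CPM in mock and at 24.2 and 27.6 CPM with JAZF1-SUZ12, so the groups overlapped. Its relative FLVCR2 had 0 counts in both mock libraries and 3 and 1 with JAZF1-SUZ12.

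Of the heme oxygenases, HMOX2 was measured above the floor of 3 counts and fell, and the biliverdin reductase BLVRB rose. HMOX1, the inducible heme oxygenase, had 2 and 0 counts in mock libraries 1 and 2 and 1 and 2 in JAZF1-SUZ12 libraries 1 and 2, under that floor, which is between 0.123 and 0.174 CPM. HMOX2, the constitutive oxygenase (ENSG00000103415; chr16:4474690-4510347, plus strand), was at 44.5 and 47.9 CPM in mock and at 39.1 and 34.3 CPM in JAZF1-SUZ12 libraries. It fell by 0.36 on the log2 scale (edgeR, standard error 0.08, adjusted p = 0.00351), the largest decrease among the called members. Its size ranged from -0.47 to -0.25 when 1 library was left out, and the call held in each of these fits. BLVRB, a biliverdin reductase of erythroid cells (ENSG00000090013; chr19:40447765-40465840, minus strand), rose from 294 and 295 CPM to 336 and 338 CPM (edgeR, log2 fold change 0.17, adjusted p = 0.00753), and its call was lost without mock replicate 1 (edgeR, adjusted p = 0.0564). BLVRA, the reductase of adult tissues, was at 48.7 and 47.3 CPM in mock and at 49.9 and 48.3 CPM in JAZF1-SUZ12 libraries (edgeR, log2 fold change 0.01, adjusted p = 0.942).

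The iron-sulfur cluster genes, which use mitochondrial iron for the other major cofactor, showed no call. ISCU, the scaffold, NFS1, the desulfurase, GLRX5, which passes the cluster on, and IBA57, which acts late, had log2 fold changes of -0.12, -0.05, -0.06 and 0.04. Adjusted p-values lay between 0.287 and 0.791 (edgeR), and the groups overlapped for all 4. On simulated counts for this comparison edgeR called 185 of 200 genes that had been changed 1.5-fold. At the smallest size tried, where the median estimate was 0.32 on the log2 scale, it called 106 of 200. The estimates of all 4 iron-sulfur genes lay below that size. The simulation changed 200 of 14447 genes at that size, whereas 24.7% of genes were called in the data. It also gave every gene the same variability, so it cannot say how often changes in these 4 genes would be called.

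Exons of some members overlap those of genes on the other strand, and strand use in counting is not stated. Among the called members these were ALAS2 with APEX2, PPOX with B4GALT3 and HMOX2 with NMRAL1. The overlapping genes were not called, with log2 fold changes of -0.07, -0.11 and -0.16 (edgeR, adjusted p = 0.532, 0.227 and 0.145).

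Other genes of heme and iron metabolism were drawn from a list of 53 that are not members. Of these, 48 were tested and 9 (18.8%) were called, 6 higher and 3 lower, with a median log2 fold change of 0.0032. Over all genes tested 24.7% were called, so the list held no surplus of calls. The genes that rose most were signalling and surface genes with low counts. BMP6, a ligand that induces hepcidin, had 7 and 3 counts in mock libraries 1 and 2 and 79 and 101 in JAZF1-SUZ12 libraries 1 and 2 (edgeR, log2 fold change 4.13, adjusted p = 3.87e-06). Without mock replicate 2 its log2 fold change was 3.61, and against mock replicate 2 alone the ratio was 30.7 with an exact 95% interval from 10.3 to 150.04, which covers counting error only. HAMP, the hepcidin gene itself, had 26 and 29 counts in mock and 60 and 72 in JAZF1-SUZ12 libraries (edgeR, log2 fold change 1.26, adjusted p = 0.00927), and its adjusted p was 0.0505 without JAZF1-SUZ12 replicate 1. Of the 4 hepatocyte markers, which include HAMP, ALB and APOA1 had at most 2 counts in any library. TF was at 31.8 and 34.5 CPM in mock and at 34.3 and 41.6 CPM with JAZF1-SUZ12. It was not called here (edgeR, log2 fold change 0.18, adjusted p = 0.145), but the authors' deposited table called it (log2 fold change 0.77, adjusted p = 0.000173). Exons of TF overlap those of SRPRB and TFP1 on the same strand. The 4 summed to 33.2 and 35.9 CPM in mock and to 37.8 and 44.6 CPM with JAZF1-SUZ12, and their part in the HAMP result was not tested.

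LRP1, a scavenger receptor that takes up heme bound to hemopexin, rose from 149 and 159 counts to 391 and 612 (edgeR, log2 fold change 1.67, adjusted p = 7.11e-08). ABCG2, a porphyrin exporter, rose from 12 and 16 counts to 37 and 56 (edgeR, log2 fold change 1.70, adjusted p = 0.00664), with an adjusted p of 0.058 without JAZF1-SUZ12 replicate 2. ERFE, the erythroid hormone that suppresses hepcidin, rose by 0.58 on the log2 scale (edgeR, adjusted p = 0.0116), and its call was lost without JAZF1-SUZ12 replicate 1 (edgeR, adjusted p = 0.0511) and without mock replicate 1 (edgeR, adjusted p = 0.0628). Of the ZIP metal importers, SLC39A8 rose by 0.36 and SLC39A14 changed by -0.40 (edgeR, adjusted p = 0.00122 and 0.000192). Among iron-sulfur genes outside the 39, HSPA9 and CIAPIN1 changed by -0.14 and -0.24 (edgeR, adjusted p = 0.021 and 0.0132). Of the 9 related genes called here, the authors' deposited table called 5. It did not call ERFE, SLC39A8, HSPA9 or CIAPIN1 (adjusted p = 0.227, 0.0648, 0.0805 and 0.579). The call of HSPA9 was lost without JAZF1-SUZ12 replicate 2 or mock replicate 1 (edgeR, adjusted p = 0.0855 and 0.0981), and that of CIAPIN1 without mock replicate 1 (edgeR, adjusted p = 0.156).

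Factors that drive the pathway were read from the same fit. Of 19 regulators 5 (26.3%) were called, a share near the 24.7% over all genes tested, with NFE2 higher and STAT5A, LMO2, NFE2L2 and KEAP1 lower. NFE2, the subunit that pairs with small MAF proteins at erythroid genes, had the log2 fold change 0.21 (edgeR, adjusted p = 0.0034), with an adjusted p of 0.0625 without mock replicate 1. STAT5A and LMO2, which act in cytokine signalling and in the GATA1 and TAL1 complex, changed by -0.48 and -0.31 (edgeR, adjusted p = 4.94e-07 and 0.00219). BACH1, the repressor that heme releases from HMOX1 and ferritin genes, and EIF2AK1, the heme-sensing kinase, were not called, both with a log2 fold change of 0.02.

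**Figure D4:**
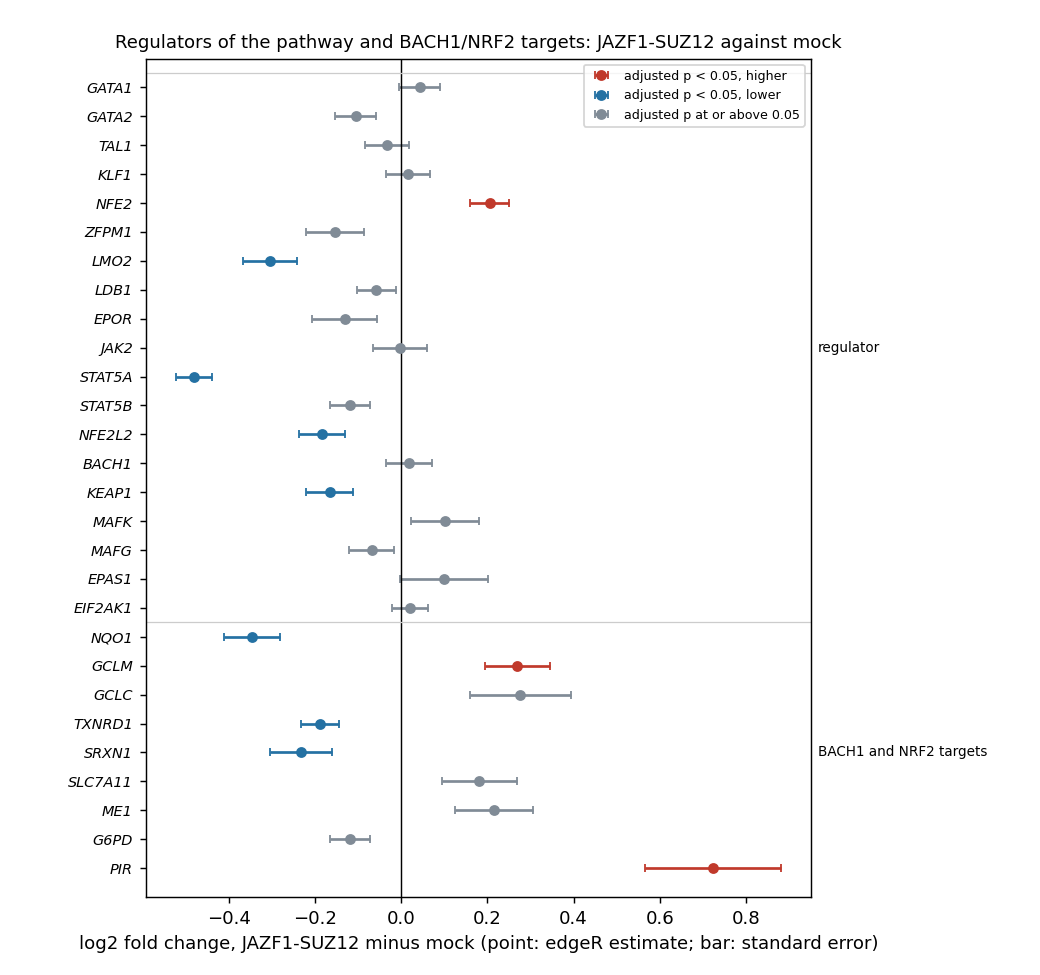
Difference between JAZF1-SUZ12 and mock libraries in 19 regulators of the pathway and 9 targets of the BACH1 and NRF2 axis (horizontal axis: log2 fold change; points: edgeR estimates; bars: standard errors, 2 libraries per group). GATA1, TAL1 and KLF1 lie near 0 at 0.04, -0.03 and 0.02, STAT5A lies at -0.48, and the 9 targets fall on both sides of 0.

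NFE2L2 (NRF2), which activates antioxidant and iron storage genes, and its inhibitor KEAP1 changed by -0.18 and -0.17 (edgeR, adjusted p = 0.0196 and 0.0344). These calls were lost with DESeq2 (adjusted p = 0.053 and 0.093). NFE2L2 and KEAP1 were also not called in the authors' deposited table (adjusted p = 0.307 and 0.43). That table called 3 of the 5 regulators called here. KEAP1 also missed the threshold without JAZF1-SUZ12 replicate 2, mock replicate 1 or mock replicate 2 (edgeR, adjusted p = 0.198, 0.118 and 0.0634), with total counts in place of TMM (edgeR, adjusted p = 0.0542) and with a mean of at least 50 counts required (edgeR, adjusted p = 0.0526). NFE2L2 missed it without mock replicate 1 (edgeR, adjusted p = 0.0952). Of 9 targets of this axis other than the members, 3 fell (NQO1, TXNRD1 and SRXN1) and 2 rose (GCLM and PIR), with a median log2 fold change of 0.18. The share called was 55.6% of few genes, against 24.7% of all genes tested. The authors' deposited table did not call TXNRD1 and SRXN1 (adjusted p = 0.0631 and 0.354). It called GCLC (log2 fold change 0.74, adjusted p = 0.0175), which was not called here (edgeR, adjusted p = 0.102). NQO1, a quinone reductase, changed by -0.35 and PIR, an iron-binding nuclear protein, by 0.72 (edgeR, adjusted p = 0.00109 and 0.00333). SRXN1 and GCLM were not called with DESeq2 (adjusted p = 0.146 and 0.0689) and each lost its edgeR call without either of 2 libraries, SRXN1 without JAZF1-SUZ12 replicate 2 or mock replicate 1 (edgeR, adjusted p = 0.169 and 0.0896) and GCLM without JAZF1-SUZ12 replicate 1 or mock replicate 2 (edgeR, adjusted p = 0.12 and 0.117).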

How the data were processed

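RNA-seq of 4 K562 samples used poly(A) selection and strand-marking library preparation, per the labels' protocols. The authors deposited estimated counts per gene, not scaled, of which between 29.9% and 33.6% in a library are not whole numbers at a tolerance of 1e-06. The submitters' processing notes name fastp 0.20.1, kallisto 0.46.2, DESeq2 1.30.1 and hg38 without giving roles, and the annotation is not given in the sources used here. The authors also deposited a table with the columns DESeq2 writes, per the file headers: a mean normalized signal, a log2 fold change with its error, a score (the test statistic), and a p-value with its adjusted p-value. From it, log2 fold changes and adjusted p-values were copied.

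Counts were rounded, since edgeR's test expects whole numbers, and CPM are rounded counts scaled to a library total of 1e+06. Genes were kept by filterByExpr, scaled by TMM and compared with edgeR 4.0.16 (R 4.3.3) by its quasi-likelihood test over all genes, two-sided, with Benjamini-Hochberg adjustment over 14750 genes and a threshold of 0.05. The standard error is the log2 fold change divided by the square root of F. Each library is given by its value, since 2 per group allow no firm SD. Counting intervals and the floor of 3 counts cover counting error only. DESeq2 1.42.0, limma-voom (limma 3.58.1), other scalings and filters, the replicate block, added pseudogene counts, a threshold of 0.01 and leaving out each library were alternatives. Those for genes outside the 39 were added after seeing the data.

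Positions and transcript lengths are from GENCODE 29 (GRCh38), which matched 35410 of 35606 gene IDs and all 39 members. The test was tried on simulated counts, of 14431 genes with 1.5-fold changes in 200 of them and of 14447 genes with smaller ones in 200. The members and lists were chosen with earlier results of these data known. Values in every library are given for each called member and for members of paralog pairs, and the rest by their log2 fold changes. Related genes and regulators are named where called, with other members of the lists as context.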

Additional observations from a re-analysis of the deposited data

How the results depend on the processing

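Of the 13 called members, 8 were called in all 8 alternatives that used every library and in all 4 fits without one library: ALAS2, UROS, CPOX, FECH, SLC25A37, TFR2, FTL and HMOX2. PPOX, TFRC, NCOA4, BLVRB and HEPH each lost the call in at least 1 of them, and ALAD, ABCB6, SLC25A28 and PCBP1 gained one in at least 1. No fold change of a called member changed sign. The authors' deposited table, which is not among these alternatives, called 7 of the 13. There TFR2, HMOX2, NCOA4, BLVRB and HEPH were not called (adjusted p = 0.0754, 0.144, 0.0731, 0.0771 and 0.325), nor was PPOX. The number of members called was 13, and it ranged from 11 to 16 when single libraries were dropped (from 8 to 11 higher and from 3 to 5 lower). Those fits leave a group with 1 library, which is taken to vary like the others. Over all genes, the 3643 calls became 2407 with DESeq2, where the cause was not tested, and 2045 at an adjusted p under 0.01, a threshold that reduces calls by construction. Leaving out a library gave from 2568 to 3782 calls. Total counts in place of TMM moved the share of higher calls over all genes to 60.5% from 53.7%. With the replicate number as a block, 15 members were called, ALAD and ABCB6 in addition, and 4061 of all genes. The correlation of the deviations of same-numbered libraries over the genes tested was -0.00073. With 2 libraries per group, 1 such value cannot show whether same-numbered libraries were handled together, and the labels do not say.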
